A study of Mus musculus with 4 samples.

Results

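The Notch receptors (Notch1, Notch2, Notch3 and Notch4), their ligands (Jag1, Jag2, Dll1 and Dll4) and the target genes Hes1 and Hey1 were measured on Affymetrix mouse genome arrays in 4 mammary tumours. A probe set, the unit of the array, was included where its only annotated gene symbol was one of these 10 genes, which gave 19 of the 45101 probe sets and 10 of the 18193 genes named on the array. The tumours grew in nude mice, hosts that lack a thymus, from transplanted Eph4 cells, an established mouse mammary epithelial line. In 2 tumours, called EN-TAM67 here, the cells expressed the fusion oncogene ETV6-NTRK3 together with TAM67, the dominant negative version of c-Jun, a subunit of the AP-1 transcription factor. In the other 2, called EN, they carried ETV6-NTRK3 alone, so both groups share the fusion. The comparison addressed whether tumour formation by the fusion runs through AP-1. The labels do not say whether the cells were a clone or a pool, nor the age of the hosts.

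Notch receptors are membrane proteins that are activated by Jagged and Delta-like ligands on neighbouring cells. Ligand binding lets the protease ADAM10 and then the gamma-secretase complex cut the receptor, and the freed intracellular domain joins the DNA-binding protein RBPJ and a Mastermind coactivator to turn on target genes, among them the HES and HEY transcriptional repressors. In the mammary gland, Notch signalling steers progenitor cells towards the luminal fate, and Notch4 is the gene at which mouse mammary tumour virus insertions produce an active receptor fragment.

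Because TAM67 acts on AP-1, the promoters of the genes were searched for the AP-1 site TGANTCA. They were also searched for the CRE TGACGTCA, for the RBPJ core TGGGAA, and for CACGTG and CACGCG, which HES and HEY proteins bind. RefSeq windows of build GRCm38.p6, from 250 bases before to 50 bases after an annotated gene start, matched 8 of the 10 genes with 9 windows in all, of which Dll1 had 2; Hes1 and Hey1 were not matched. The 4 windows below are shown because they hold the AP-1 matches (Notch4 and one start of Dll1) or belong to the ligands whose probe sets had the differences described below (Jag1 and Dll4). They run 5′ to 3′ along the gene, and capitals mark the motif matches on either strand.
Notch4, chr17:34564045-34564344, plus strand: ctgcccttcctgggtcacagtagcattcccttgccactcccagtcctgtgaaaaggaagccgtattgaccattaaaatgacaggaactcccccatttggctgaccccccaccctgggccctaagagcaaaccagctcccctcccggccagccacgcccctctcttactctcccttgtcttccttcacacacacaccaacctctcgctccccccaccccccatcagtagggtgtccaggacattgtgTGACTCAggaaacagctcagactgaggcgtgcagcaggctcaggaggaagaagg
Dll1, chr17:15376883-15377182, minus strand: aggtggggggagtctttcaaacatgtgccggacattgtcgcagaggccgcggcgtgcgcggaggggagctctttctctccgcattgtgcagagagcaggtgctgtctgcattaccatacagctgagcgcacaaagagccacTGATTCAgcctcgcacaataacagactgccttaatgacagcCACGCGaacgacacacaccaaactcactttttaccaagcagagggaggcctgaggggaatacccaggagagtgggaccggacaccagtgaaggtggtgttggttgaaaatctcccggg
Jag1, chr2:137116471-137116770, minus strand: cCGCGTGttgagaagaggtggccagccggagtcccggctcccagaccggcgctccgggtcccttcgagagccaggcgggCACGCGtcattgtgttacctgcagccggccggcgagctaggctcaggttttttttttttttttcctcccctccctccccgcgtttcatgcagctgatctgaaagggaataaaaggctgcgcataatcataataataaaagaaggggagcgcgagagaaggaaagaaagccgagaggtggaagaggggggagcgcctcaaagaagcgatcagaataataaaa
Dll4, chr2:119325534-119325833, plus strand: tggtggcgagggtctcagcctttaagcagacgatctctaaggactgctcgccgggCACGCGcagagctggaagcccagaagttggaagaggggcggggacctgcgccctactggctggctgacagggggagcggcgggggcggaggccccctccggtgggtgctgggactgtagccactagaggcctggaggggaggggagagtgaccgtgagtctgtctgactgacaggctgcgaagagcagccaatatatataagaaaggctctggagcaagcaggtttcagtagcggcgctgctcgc
The AP-1 letters TGANTCA stood in 2 of the 9 windows, against 7.81% of 32851 windows of all genes. In Notch4 the match TGACTCA began 4 bases before the gene start, and in the upstream Dll1 window TGATTCA began 109 bases before it. CACGCG on either strand stood in 5 of the 9 windows (Jag1, Jag2, Dll4, Notch2 and the upstream one of Dll1), against 9.27% of all windows. TGACGTCA, TGGGAA and CACGTG matched 0 of the 9, against 1.79%, 25.6% and 7.15% of all windows. No match overlapped another, and a match is a run of letters, not a bound site. The windows of all genes were not matched to these 9 in base composition, so the shares cannot show enrichment or depletion.

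Measures of RNA quality and brightness, and the sums of several marker lists of cell types, were separated between the groups. Each result below is to be read beside them. The 3' to 5' signal ratio of Gapdh was 1.17 and 1.11 in the EN-TAM67 tumours, against 0.938 and 1.04 in the EN tumours. That of beta-actin was 1.31 and 1.34 in EN-TAM67, against 1.11 and 1.19 in EN. The mean 18S signal, as log2(intensity + 16), was 6.76 and 7.43 in EN-TAM67, against 5.43 and 6.40 in EN. Array medians were 38.1 and 40.8 units in EN-TAM67, against 35.6 and 35.9 in EN. The luminal epithelial markers, 6 of 8 of them bright enough to test, summed to 2894 and 2890 intensity units in EN-TAM67 and to 3496 and 3750 in EN, with Elf5 and Krt19 too dim. Of the 6 tested at their brightest probe set, 4 were negative (Krt8 the brightest, at 1596 and 1470 units in EN-TAM67 and 2048 and 2017 in EN) and 2 positive (Cdh1 and Cldn3), with 0 past the test in limma, 1 at an unadjusted p under 0.05 and a median of -0.25. The basal epithelial markers summed to 342 and 618 units in EN-TAM67, against 420 and 379 in EN, and overlapped between the groups. So did the lymphocyte markers, at 311 and 351 units in EN-TAM67, against 345 and 281 in EN. The part of any of these measures in the values of the Notch genes was not tested. The labels number the tumours but do not say that they came from separate animals or cultures, so the p-values cover only the spread seen between these arrays, part of which may be technical. With whole-tumour RNA, fewer cells of a type and less RNA per cell cannot be told apart.

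No Notch receptor, ligand or target passed the test between the groups. Of the 19 probe sets, 16 (from all 10 genes) were bright enough to be tested, and 0 of these reached an adjusted p under 0.05 in limma, against 0.226% of the 27022 probe sets tested; 1 had an unadjusted p under 0.05, against 9.48%. Each difference given is the EN-TAM67 mean minus the EN mean of log2(intensity + 16), n = 2 tumours a group, with the SE and the 95% interval of limma's fit. Of the 16 differences 11 were negative, where 44.9% of all tested probe sets were, and their median was -0.13 against 0.041 over all probe sets tested. The groups did not overlap in 7 of the 16 (5 lower and 2 higher in EN-TAM67), a share of 43.8%; over all probe sets tested it was 39.8% (18.1% lower and 21.7% higher). Of the 19 together, 13 were negative and 7 had groups that did not overlap. The shares over all probe sets given here cover only those tested, so these counts over the 19 have no share beside them. At 10 of the 16 the 95% interval lay between -1 and 1 on the log2(intensity + 16) scale, and at the other 6 it reached past that. Because 16 is added to each intensity, these limits are wider than a 2-fold change in intensity itself.

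**Figure D1:**
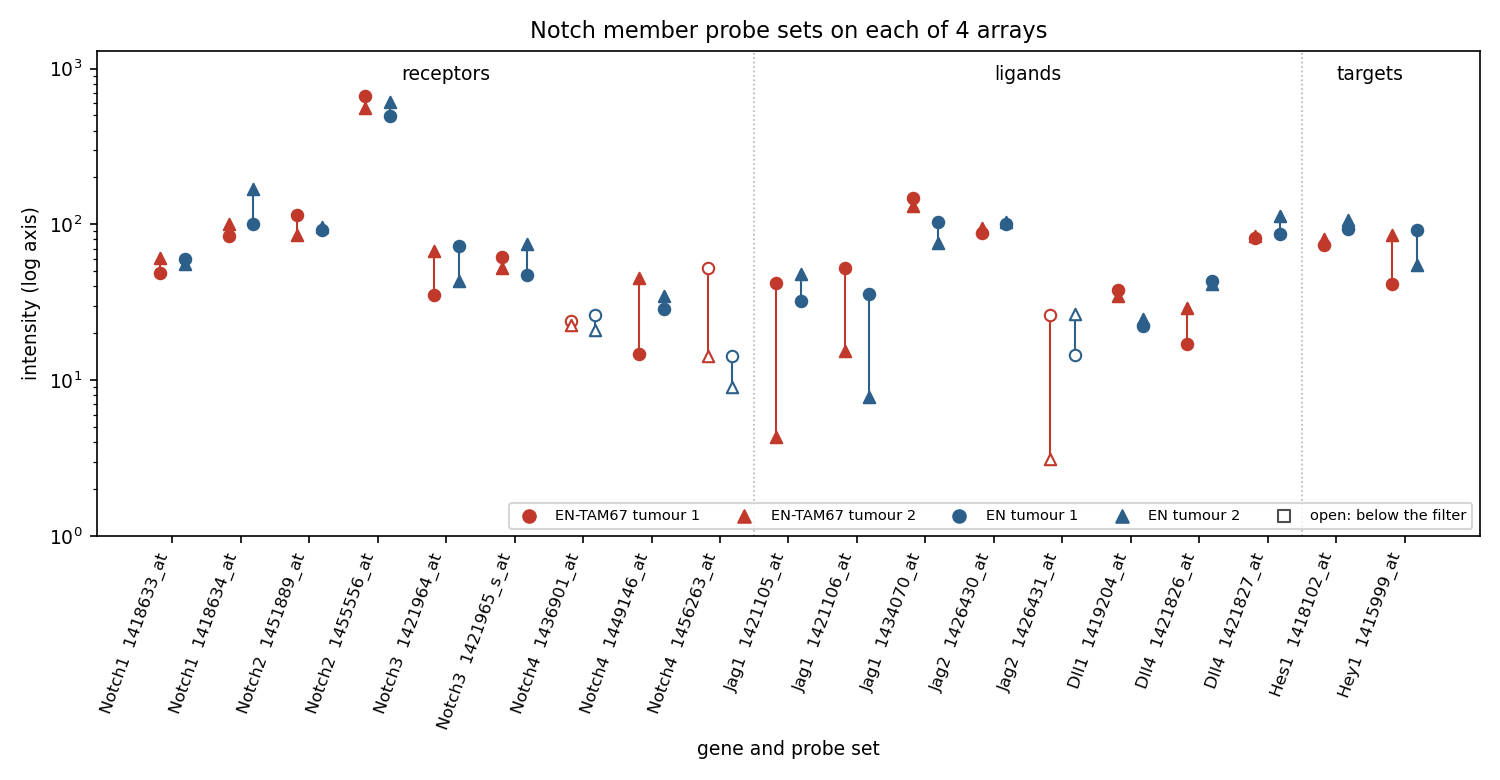
Intensity (log axis) of each of the 19 probe sets on each array, with EN-TAM67 tumours in red, left, and EN tumours in blue, right, circles for tumour 1 and triangles for tumour 2, and a line joining the tumours of a group. Open symbols are the 3 probe sets below the filter; the separated groups are those of Jag1 1434070_at (148 and 131 in EN-TAM67, 104 and 75.5 in EN) and 6 others.

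Among the receptors the groups were separated at 1 of 7 tested probe sets, of Notch1, and there by a gap of 0.28 units (14.3%, beside 39.8% of all probe sets tested). Notch1 is the receptor most widely used across tissues. Its probe set 1418634_at read 84.3 and 100.01 units in EN-TAM67, against 100.3 and 169 in EN, so that a single EN tumour stood above the other 3. The difference was -0.44 ± 0.25 (interval -0.99 to 0.099, adjusted p = 0.621 in limma), and -0.11 without EN tumour 2. The other Notch1 probe set, 1418633_at, read 48.6 and 60.8 units in EN-TAM67 and 59.9 and 55.7 in EN, with a difference of -0.066 ± 0.25 that was 0.058 without EN-TAM67 tumour 1. The sign at 1418634_at could not turn with an array left out, since its groups did not overlap, whereas that at 1418633_at did turn.

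Notch2, the receptor next to Notch1 in structure, had overlapping groups at both probe sets. Its brighter one, 1455556_at, read 664 and 556 units in EN-TAM67, against 497 and 612 in EN, a difference of 0.14 ± 0.21 (interval -0.31 to 0.58, adjusted p = 0.881). The dimmer one, 1451889_at, read 115 and 85.4 units in EN-TAM67, against 92.6 and 95.9 in EN (0.067 ± 0.23). These directions rested on single arrays: 1455556_at stood at -0.010 without EN tumour 1, and 1451889_at at -0.12 without EN-TAM67 tumour 1 and at -0.032 with each array centred on its median.

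Notch3, the receptor known for its role in pericytes and vascular smooth muscle, had overlapping groups at both probe sets, which ordered the tumours in opposite ways. Probe set 1421964_at read 35.4 and 67.5 units in EN-TAM67, against 73.0 and 43.3 in EN, and differed by -0.15 ± 0.30 (adjusted p = 0.917). Probe set 1421965_s_at stood at 61.5 and 52.8 units in EN-TAM67 and 47.6 and 74.9 in EN, and differed by -0.058 ± 0.26. Both signs turned when single arrays were left out. That of 1421964_at was positive on leaving out EN-TAM67 tumour 1 (0.20) or EN tumour 1 (0.14), and that of 1421965_s_at on leaving out EN-TAM67 tumour 2 (0.028) or EN tumour 2 (0.20).

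Notch4, a receptor of endothelial cells, was dim. Only 1449146_at of its 3 probe sets was tested; it read 14.8 and 45.3 units in EN-TAM67, against 28.7 and 35.0 in EN (-0.13 ± 0.44, interval -1.07 to 0.80), and stood at 0.36 without EN-TAM67 tumour 1. Probe set 1436901_at read 23.8 and 22.5 units in EN-TAM67 and 26.2 and 21.1 in EN. The last, 1456263_at, read 52.2 and 14.3 units in EN-TAM67, against 14.3 and 8.999 in EN, a high value in 1 tumour. With all probe sets tested, these dimmer ones differed by -0.015 (adjusted p = 0.998 in limma) and 0.72 (adjusted p = 0.748). No Notch4 probe set passed the test, and its probe sets differed in sign. Whether the TGACTCA in its window has a part in the Notch4 values was not tested.

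**Figure D2:**
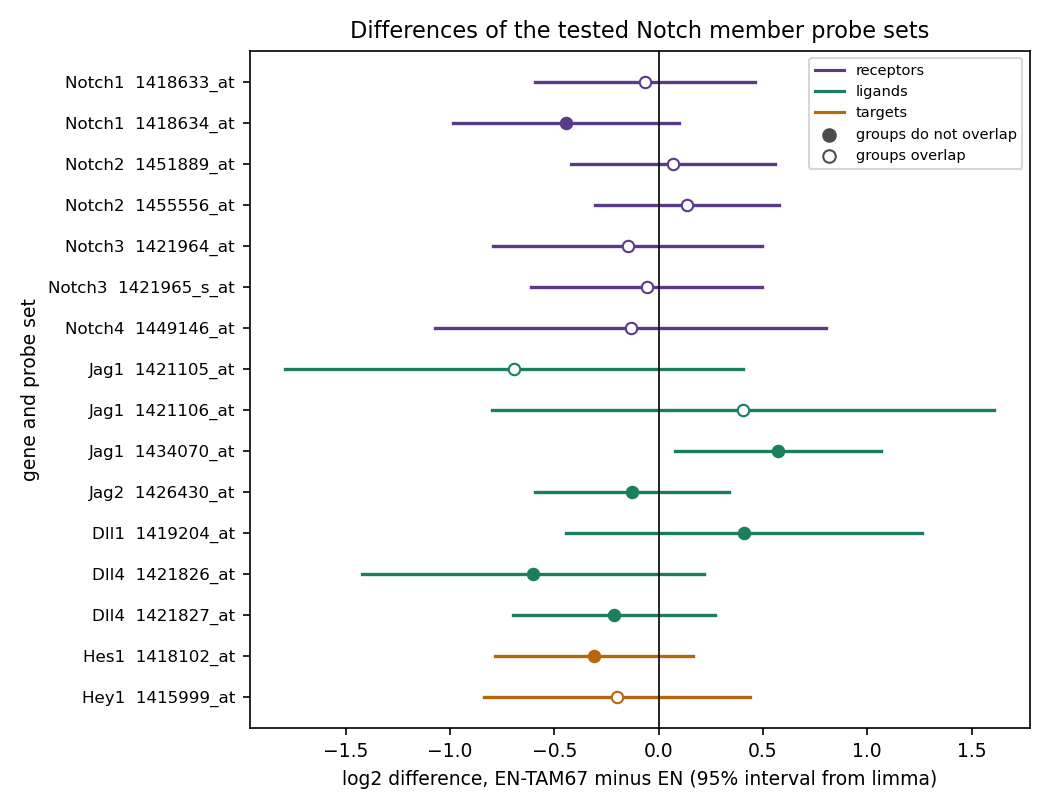
Log2 difference (EN-TAM67 minus EN) of the 16 tested probe sets with limma's 95% interval, coloured by role, filled where the groups do not overlap. The interval of Jag1 1434070_at (0.076 to 1.07) is the only one that leaves out 0, before any adjustment for the number of probe sets tested.

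At the ligands the groups were separated at 5 of 7 tested probe sets, with 2 higher and 3 lower in EN-TAM67; over all probe sets tested the share was 39.8% (21.7% higher and 18.1% lower), and no ligand passed the test. Jag1, a Jagged ligand expressed in many epithelia, had the lowest p of the 16. Its probe set 1434070_at read 148 and 131 units in EN-TAM67, against 104 and 75.5 in EN, so both EN-TAM67 tumours stood above both EN tumours. The difference was 0.57 ± 0.23, or 1.49-fold in intensity + 16 (interval 0.076 to 1.07, unadjusted p = 0.0266, adjusted p = 0.465 in limma), and 0.37 without EN tumour 2. The other Jag1 probe sets, annotated to a shared accession, had overlapping groups and opposite signs. Probe set 1421105_at read 42.2 and 4.31 units in EN-TAM67, against 32.3 and 48.0 in EN, and 1421106_at read 52.4 and 15.5 in EN-TAM67, against 35.5 and 7.78 in EN. Both were lower in EN-TAM67 tumour 2 than in EN-TAM67 tumour 1. Their differences were -0.69 ± 0.51 and 0.41 ± 0.56, with intervals past a 2-fold change. The first stood at 0.066 without EN-TAM67 tumour 2, and the second at -0.15 on leaving out EN-TAM67 tumour 1 or EN tumour 2.

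Jag2, the other Jagged ligand, read 88.4 and 95.02 units in EN-TAM67 at 1426430_at, against 99.8 and 103 in EN, and its groups were separated by 4.81 units. The difference was -0.13 ± 0.22 (interval -0.59 to 0.34, adjusted p = 0.898). Its dimmer probe set 1426431_at, below the filter, read 26.2 and 3.12 units in EN-TAM67 and 14.5 and 26.7 in EN.

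Dll1, a Delta-like ligand found in mouse mammary stem cells, had 1 probe set, 1419204_at, near the lower limit of what was tested. It read 37.9 and 34.7 units in EN-TAM67, against 22.1 and 24.6 in EN, so both EN-TAM67 tumours were higher, with each pair close together. On the log2 scale the difference was 0.41 ± 0.40 (interval -0.44 to 1.26, adjusted p = 0.795 in limma). The SE is larger than the ranges within the groups (0.088 in EN-TAM67 and 0.091 in EN), since limma's variance for a probe set also draws on the others of like intensity.

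Dll4, the Delta-like ligand of sprouting vessels, was lower in both EN-TAM67 tumours at both probe sets, without passing the test. Probe set 1421826_at read 17.0 and 28.9 units in EN-TAM67, against 43.5 and 41.4 in EN (-0.60 ± 0.38, interval -1.42 to 0.22, adjusted p = 0.658). It stood at -0.38 without EN-TAM67 tumour 1. Probe set 1421827_at read 81.4 and 84.6 units in EN-TAM67, against 86.5 and 113 in EN, with a gap of 1.91 units, and differed by -0.21 ± 0.23, or by -0.050 without EN tumour 2. Endothelial markers also had a lower sum in EN-TAM67: the 10 summed to 571 and 652 units in EN-TAM67, against 697 and 982 in EN. The 7 of 10 bright enough to test were all negative at their brightest probe sets, with Emcn (-0.042) and Egfl7 (-0.058) near 0. Of these 7, 0 passed the test in limma and 2 had an unadjusted p under 0.05, with a median of -0.23. Among all tested endothelial probe sets, only Cdh5 1422047_at was positive (0.012, with overlapping groups). No endothelial marker was at 0 on any array, and Pecam1, Tek and Tie1 were below the filter. The part of vessel content in the Dll4 values was not tested.

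Both targets had negative differences, and neither passed. Hes1, a repressor that Notch induces in many tissues, read 73.9 and 80.9 units in EN-TAM67, against 92.9 and 107 in EN, so both EN-TAM67 tumours were lower. The Hes1 difference was -0.31 ± 0.22 (interval -0.79 to 0.16, adjusted p = 0.703 in limma) and ranged from -0.40 to -0.22 with each array left out. Hey1, a related repressor of the vasculature and other tissues, read 41.6 and 85.1 units in EN-TAM67, against 92.3 and 54.9 in EN, with overlapping groups. Its difference of -0.20 ± 0.30 (interval -0.84 to 0.44, adjusted p = 0.879) became 0.21 on leaving out EN-TAM67 tumour 1, and 0.11 on leaving out EN tumour 1.

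**Figure D3:**
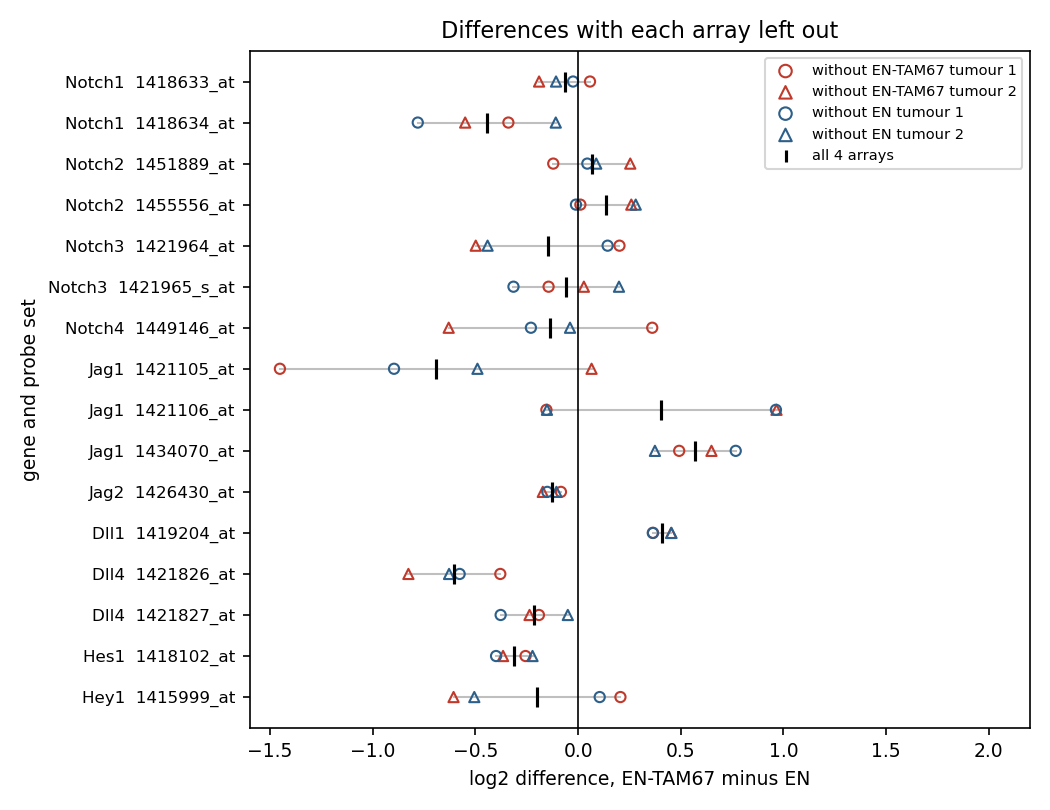
Log2 difference (EN-TAM67 minus EN) of the 16 tested probe sets over all 4 arrays (bar) and with each array left out (circles for tumour 1, triangles for tumour 2, red for EN-TAM67 and blue for EN). The 9 probe sets with overlapping groups each crossed 0 without at least 1 array, as Hey1 did (-0.61 to 0.21), whereas groups that do not overlap cannot.

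The spread between tumours of a group was often wider than the difference between the groups. At 11 of the 16 tested probe sets the range within at least 1 group exceeded the difference between the groups on the log2 scale. Hey1 and Notch3 1421964_at, set side by side after their values were seen, were both high in EN-TAM67 tumour 2 and EN tumour 1 and low in EN-TAM67 tumour 1 and EN tumour 2, whereas Hes1 was not. The other Notch3 probe set, 1421965_s_at, ran opposite to Hey1 within both groups (61.5 and 52.8 units in EN-TAM67, 47.6 and 74.9 in EN), so the likeness holds for 1 of the 2 Notch3 probe sets. The pericyte and smooth muscle markers did not share that order: they summed to 1497 and 1360 units in EN-TAM67, against 1585 and 1866 in EN. Of these 8 markers 6 were tested, with 3 positive, 3 negative, 0 past the test, 1 at an unadjusted p under 0.05 and a median of -0.079; Cnn1 and Myh11 were below the filter. Fibroblast markers summed to 17015 and 14689 units in EN-TAM67, against 19046 and 25831 in EN (9 tested of 9, 8 negative, 0 past the test, 6 at an unadjusted p under 0.05). Macrophage markers summed to 11674 and 9298 units in EN-TAM67, against 17640 and 14828 in EN (8 tested of 8, 7 negative, 0 past the test, 5 at an unadjusted p under 0.05). Adipocyte markers summed to 1534 and 6572 units in EN-TAM67, against 636 and 406 in EN (6 tested of 9, all positive, 1 past the test). Skeletal muscle markers summed to 274 and 332 units in EN-TAM67, against 163 and 185 in EN (3 tested of 7, 2 positive, 1 past the test). No marker of these lists was at 0 on an array at its brightest probe set, and the part of any of them in the values of Hey1 or of either Notch3 probe set was not tested.

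**Figure D4:**
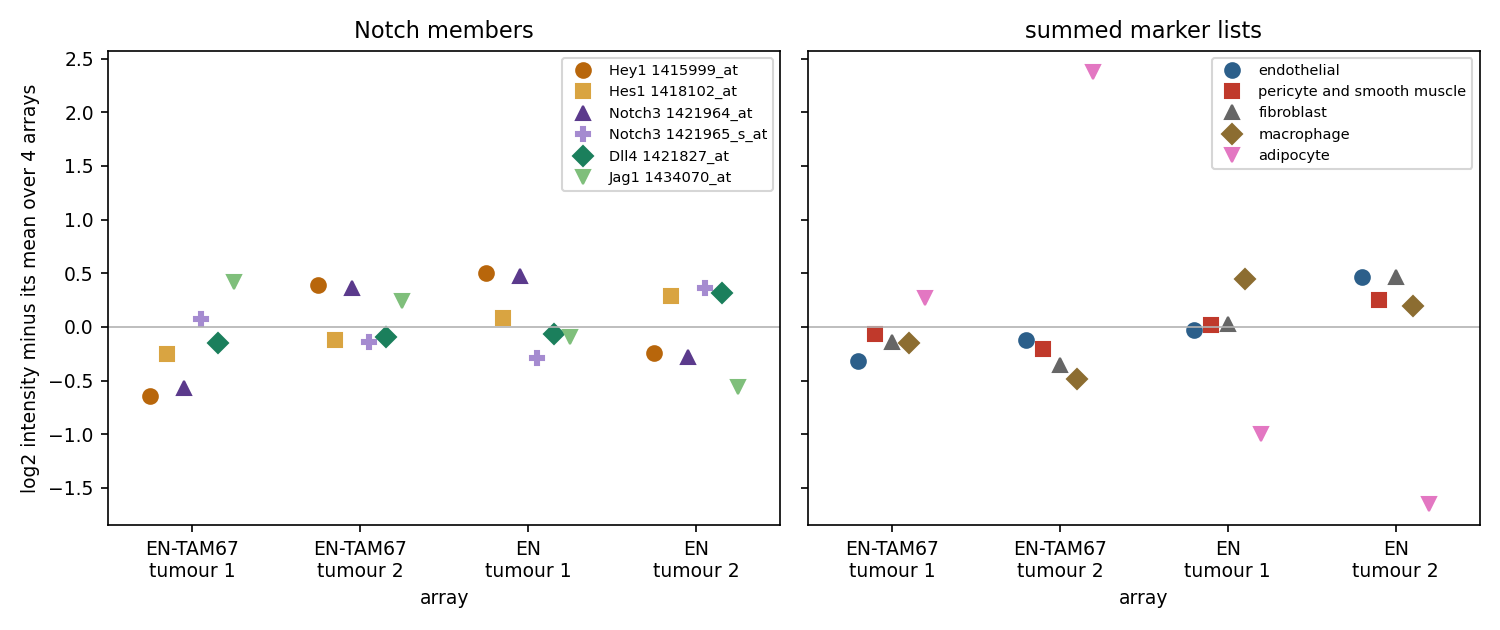
Log2 intensity minus its mean over the 4 arrays, for 6 Notch probe sets (left) and for the summed intensity of 5 marker lists (right), with the EN-TAM67 arrays left of the EN arrays. Points of an array are set side by side. Hey1 lies close to Notch3 1421964_at on each array and opposite to Notch3 1421965_s_at within both groups, and the adipocyte sum spans the widest range (406 to 6572 units).

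The rest of the pathway also gave 0 genes past the test. Of 48 listed genes, 44 had a named probe set, 36 had one bright enough to test, and 0 of these 36 passed in limma at the brightest probe set (0.226% of all tested probe sets did), while 4 had an unadjusted p under 0.05 (9.48% of all did). Their median was 0.017, beside 0.041 over all probe sets tested, with 17 negative. Leaving out EN-TAM67 tumour 1 gave -0.014, and leaving out EN tumour 2 gave 0.057. Over all 72 tested probe sets of these genes, 0 passed and 7 had an unadjusted p under 0.05. Groups did not overlap in 16 of the 36 (11 higher and 5 lower in EN-TAM67), a share of 44.4% beside 39.8%.

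Genes upstream of the receptor's activation were mixed; counts of signs by role are at each gene's brightest tested probe set. All 3 tested genes of ligand endocytosis, which arms the ligand in the sending cell, had positive differences there, as did 7 of their 9 tested probe sets; the ubiquitin ligase Mib2 read 66.6 and 77.4 units in EN-TAM67, against 51.0 and 36.7 in EN (0.56 ± 0.25, adjusted p = 0.507), and Neurl1a was at 0.33. The Neurl1a value was 0.048 without EN tumour 2, and 2 of the gene's 6 tested probe sets were negative (-0.25 and -0.067). Of 6 genes that glycosylate or process the receptor, 4 were negative. The fringe enzyme Mfng read 39.9 and 9.63 units in EN-TAM67 and 45.1 and 36.7 in EN (-0.58 ± 0.44, and -0.020 without EN-TAM67 tumour 2), and Lfng was at 0.18 (0.084 without EN tumour 2). Of 7 genes of receptor cleavage, 5 were negative. The gamma-secretase subunit Psenen read 343 and 429 units in EN-TAM67, against 470 and 477 in EN (-0.29 ± 0.21), and its value ran from -0.45 to -0.14 with each array left out. The catalytic subunit Psen2 was at 0.48, with 79.4 and 77.2 units in EN-TAM67 and 74.1 and 34.4 in EN, and at 0.065 without EN tumour 2. The atypical ligand Dlk2 was at -0.023, a sign that turned on leaving out EN-TAM67 tumour 1 (0.24) or EN tumour 1 (0.018).

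Downstream, the 5 tested genes of the nuclear complex and its corepressors were positive at their brightest probe sets, but 3 of their 12 tested probe sets were negative, 1 each of Rbpj (-0.18), Maml1 (-0.096) and Snw1 (-0.027). With a gene's tested probe sets averaged 4 of the 5 were positive, and Maml1 stood at -0.0077. Kdm5a, a histone demethylase that joins RBPJ in repression, had the lowest adjusted p among the brightest probe sets of the 36 genes, with 196 and 161 units in EN-TAM67, against 102 and 123 in EN (0.60 ± 0.23, unadjusted p = 0.0184, adjusted p = 0.422). The cofactor Snw1 was at 0.36 (0.12 without EN tumour 1), and at 0.0020 and -0.027 at its other tested probe sets. Rbpj itself, named here after its values were seen, overlapped between the groups at its brightest probe set, with 1018 and 788 units in EN-TAM67 and 750 and 942 in EN (0.090 ± 0.20); its other tested probe sets stood at 0.38, with separated groups, and at -0.18. Among 11 genes listed under inhibitors and turnover 6 were positive at their brightest probe sets. With a gene's tested probe sets averaged 5 were positive and 6 negative, and 11 of their 21 tested probe sets were negative. The ubiquitin ligase component Fbxw7 was at 0.57 ± 0.26 (adjusted p = 0.524 in limma) and the kinase Aak1 at 0.42 ± 0.21. Fbxw7 was at 0.28 without EN tumour 2, and its other tested probe set, 1424986_s_at, was at -0.041 with overlapping groups. The other tested probe sets of Aak1 were at 0.66 and -0.050. The lowest adjusted p of the 72 probe sets was that of Dtx3l 1439825_at, not the gene's brightest and named after its values were seen. This ubiquitin ligase of the Deltex family read 117 and 122 units in EN-TAM67, against 239 and 190 in EN (-0.76 ± 0.22, unadjusted p = 0.00425, adjusted p = 0.271 in limma), and its brightest probe set stood at -0.40. Nrarp, a Notch target that feeds back on the pathway, was also named after its values were seen. Its brightest probe set read 77.4 and 70.4 units in EN-TAM67, against 96.9 and 97.0 in EN (-0.33 ± 0.22, adjusted p = 0.677 in limma). The other tested Nrarp probe set, 1417986_at, read 13.7 and 7.44 units in EN-TAM67, against 23.1 and 64.5 in EN (-1.09 ± 0.56, adjusted p = 0.573 in limma). At both the groups were separated and lower in EN-TAM67, as they were at 18.1% of all tested probe sets.

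Of the other HES and HEY genes 3 were tested, and they did not share a direction. Hes5, a repressor that Notch induces in neural progenitors, read 63.4 and 86.5 units in EN-TAM67, against 48.4 and 37.7 in EN (0.62 ± 0.26, interval 0.070 to 1.16, unadjusted p = 0.0296, adjusted p = 0.477 in limma). Its dimmer probe set 1456010_x_at, below the filter, read 18.5 and 25.8 units in EN-TAM67 and 7.02 and 38.0 in EN, with overlapping groups. Heyl, a HEY repressor of mural cells, read 34.0 and 32.7 units in EN-TAM67, against 54.0 and 35.1 in EN (-0.28 ± 0.32, and -0.050 without EN tumour 1).

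**Figure D5:**
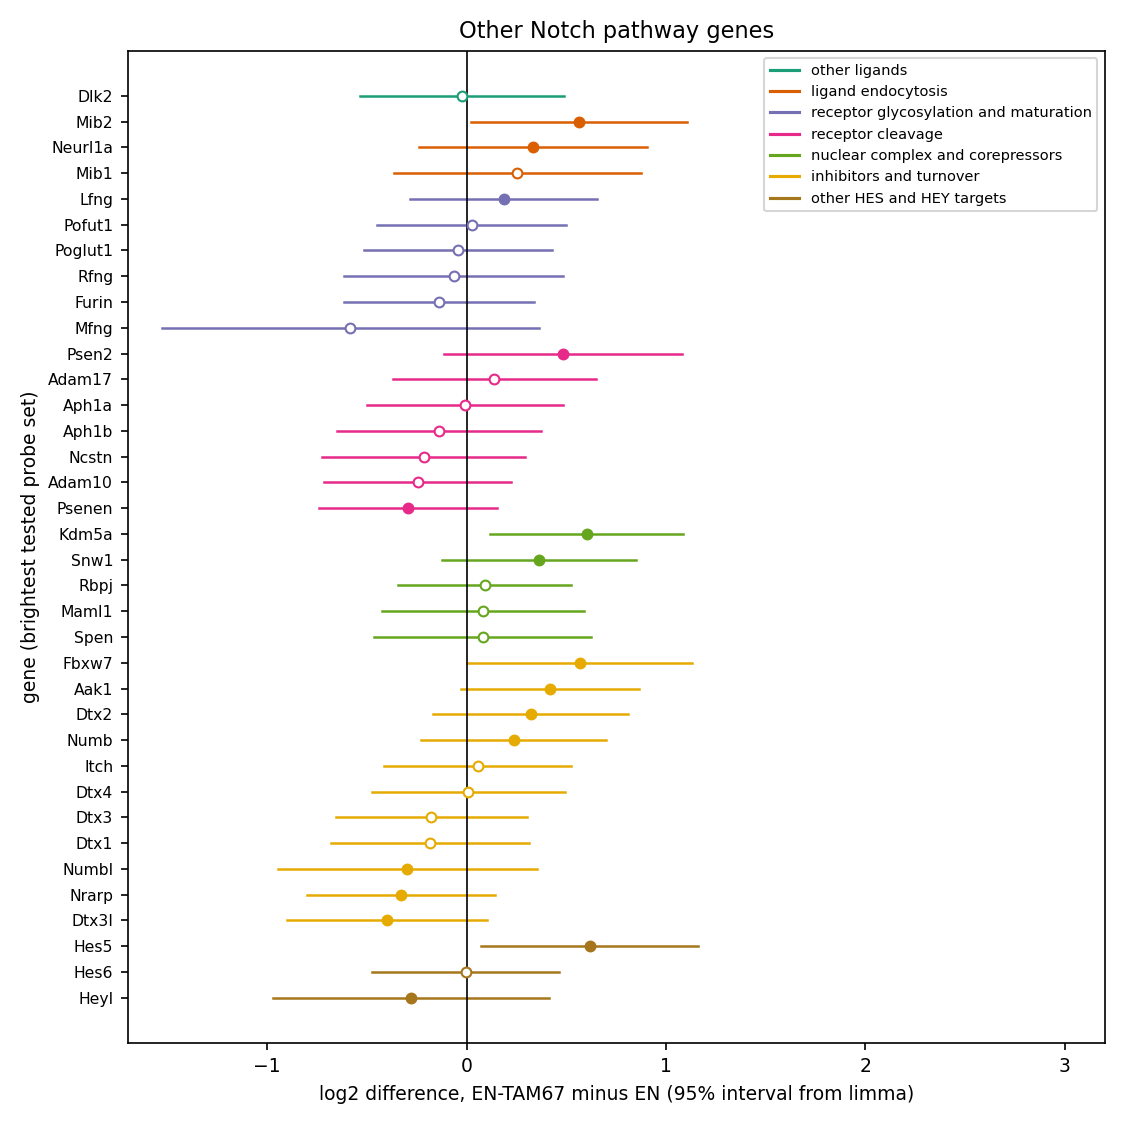
Log2 difference (EN-TAM67 minus EN) with limma's 95% interval at the brightest tested probe set of 36 other Notch pathway genes, coloured by role, filled where the groups do not overlap. Hes5 (0.62) and Kdm5a (0.60) lie at the upper end and Mfng (-0.58) at the lower, and none passed the adjusted test.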

How the data were processed

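Total RNA was extracted with Trizol, cleaned on columns and labelled with biotin as cRNA, per the labels. The deposited table holds linear intensities of 45101 probe sets on 4 arrays; the labels do not state how the authors summarised, background corrected or scaled them. Detection calls were not used here, and precision is limited by the number of arrays. Names come from the platform's annotation table (34945 with 1 symbol, 932 with several and 9160 with none); all 10 symbols equal those of RefSeq (GRCm38.p6).

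The 64 control probe sets and the dimmest 40% by mean over the 4 arrays (at or below 27.2 units) were left out. Every probe set was tested separately with limma 3.58.1 in R 4.3.3 on log2(intensity + 16), which understates changes of dim genes (lmFit, then eBayes with an intensity trend; p-values are two-sided and Benjamini-Hochberg adjusted over 27022 probe sets, with a threshold of 0.05). The fit was also run on data simulated from its own model, with changes added only to brighter probe sets. That run cannot show how well the model holds for these arrays or for dim probe sets. Each gene of the wider pathway was given by its brightest tested probe set. All probe sets of the 10 genes are named, and of the wider pathway the 2 genes of each role with the largest absolute difference. Members and lists were chosen with earlier results of these data known. Equal tumour numbers are not tied together by the labels. Alternatives were other filters, scalings, pseudocounts, probe set choices and variance models, a block for the tumour number, each array left out (the probe sets tested stayed those of all 4 arrays, and the lone tumour is taken to vary as the other pair does), and an adjusted p threshold of 0.10. Plots were drawn with matplotlib.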

Additional observations from a re-analysis of the deposited data

How the results depend on the processing

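In each of the 16 alternatives that were run, with limma, 0 of the Notch probe sets and 0 of the wider pathway genes passed; at an unadjusted p under 0.05 the count of Notch probe sets was 0 to 2. The lowest adjusted p that any of the 16 tested probe sets reached was 0.277. The number of probe sets past the threshold over the whole table, 61, became 151 when dim probe sets were kept, 38 with median centring, 147 at an adjusted p under 0.10, 0 without the intensity trend (2129 at an unadjusted p under 0.05) and 4 with the tumour number as a replicate block, and ran between 37 and 273 with an array left out (37 on leaving out EN-TAM67 tumour 2, 140 on leaving out EN tumour 1, 273 on leaving out EN tumour 2). The cause was not tested. The difference of tumour 1 minus tumour 2 had a correlation of r = -0.038 between the groups over 27022 probe sets. With 2 tumours a group, this value cannot show whether tumours of equal number shared an animal or a batch.

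The median over the Notch probe sets, -0.13, was -0.18 with quantile normalization, -0.23 with median centring and -0.065 with a pseudocount of 64, and -0.18 to -0.087 with an array left out. That of the wider pathway, 0.017, was 0.057 with the dimmest 60% left out, -0.081 with median centring, and -0.014 to 0.057 with an array left out. Median centring moved the median of all tested probe sets from 0.041 to -0.058. It turned Notch2 1451889_at to -0.032, and averaging probe sets turned Dlk2 to 0.044.

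With an array left out, signs turned at Notch1 1418633_at (-0.19 to 0.058), Notch2 1451889_at (-0.12 to 0.25) and 1455556_at (-0.010 to 0.28), Notch3 1421964_at (-0.50 to 0.20) and 1421965_s_at (-0.31 to 0.20), Notch4 1449146_at (-0.63 to 0.36), Jag1 1421105_at (-1.45 to 0.066) and 1421106_at (-0.15 to 0.97), Hey1 1415999_at (-0.61 to 0.21) and Dlk2 1420807_a_at (-0.29 to 0.24).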
